A study of Mus musculus with 4 samples.

Results

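The ribonuclease A family is a group of small secreted proteins related to pancreatic ribonuclease, and 9 of its genes were taken here by symbol from the 16892 genes of a single-cell count table of the mouse epididymis and vas deferens. They are *Ang*, *Rnase1*, *Rnase4*, *Rnase6*, *Rnase9*, *Rnase10*, *Rnase11*, *Rnase12* and *Rnase13*, all of which had UMIs (unique molecular identifiers, each marking 1 captured transcript). The data were droplet single-cell RNA-Seq libraries of dissociated tissue from FVB/NJ male mice aged 10–12 weeks, untreated and carrying no engineered allele that the labels name. There were 4 libraries, 1 each for the caput, the corpus and the cauda of the epididymis and for the vas deferens, and each was made from pieces pooled from 4 mice. No region was therefore replicated, no test between regions was possible, and every interval below is a 95% interval for counting error only.

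Sperm leaving the testis pass through the epididymis from caput to corpus to cauda and then into the vas deferens, bathed in proteins that principal cells secrete. Clear cells acidify the lumen and basal cells sit beneath both. Canonical members of the family (*Rnase1*, *Rnase4*, *Rnase6* and *Ang*, which encodes angiogenin) are secreted enzymes that cleave RNA, with roles in digestion of extracellular RNA, host defense and blood vessel growth. *Rnase9*, *Rnase10*, *Rnase11*, *Rnase12* and *Rnase13* belong to a group of members known from the male reproductive tract that lack conserved catalytic residues, and *Rnase10* is known for its requirement in giving mouse sperm their adhesive surface.

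The libraries held 8880 cells (1433 to 3506 each) and 26639701 UMIs (4408989 to 10744928 each), with a median of 1433 to 2207 UMIs per cell. Levels are given as UPM, the UMIs of a gene per 1000000 UMIs of all genes, summed within a group of cells, and 3 UMIs is taken as the floor below which no level is read. Cells carry the study's own 34 populations, 15 of which are principal cells numbered from the initial segment of the caput (principal 1) to the vas deferens (principal 12 to 15). These populations were clustered on the same counts, so differences between them are descriptions. Of 40 cell type markers in the table, 39 were highest in their own type, the exception being *Itga6*, at 268 UPM in endothelial and 245 UPM in basal cells. Markers of macrophages, dendritic cells and T cells were compared for immune cells as a whole. By population, *Csf1r*, *Cd68*, *Lyz2*, *C1qa*, *Trem2* and *Wfdc17* were highest in the 15 basal-macrophage cells, which are counted here as basal. Of 8837 barcode sequences, 43 occurred in more than 1 library. As doublets 178 cells (2.005%) were called, a number set in advance by a rate of 0.8% per 1000 cells of a library.

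All 9 genes lie on mouse chromosome 14 (GRCm38, the mm10 build). *Rnase10*, *Rnase9*, *Rnase11*, *Rnase12*, *Ang*, *Rnase4*, *Rnase6* and *Rnase1* follow each other in that order within 139.016 kb, and *Rnase13* lies 774.598 kb beyond *Rnase1*. *Ang* (51091077 to 51102009) and *Rnase4* (51091077 to 51106151) share their annotated start and strand and overlap, so the split of reads between this pair is uncertain. The sequences just before the annotated starts of 6 members are printed because neighbors in the cluster were used by different cells. They are the 250 bases before the most upstream start in RefSeq (GRCm38.p6), read 5′ to 3′ on the gene's strand, for *Rnase10* (chr14:51007501-51007750, plus strand), whose transcripts were in caput principal cells, for *Rnase9* (chr14:51041868-51042117, minus strand) and *Rnase12* (chr14:51057243-51057492, minus strand), the most abundant pair in principal cells, for *Rnase1* (chr14:51146768-51147017, minus strand), the clear cell member, and for the window that *Ang* and *Rnase4* share (chr14:51090827-51091076, plus strand). Capitals mark AGAACA or its complement TGTTCT (a half-site of the androgen receptor), AGGAAG or CTTCCT (ETS factors) and TTGCNNAA on either strand (C/EBP factors).
Rnase10: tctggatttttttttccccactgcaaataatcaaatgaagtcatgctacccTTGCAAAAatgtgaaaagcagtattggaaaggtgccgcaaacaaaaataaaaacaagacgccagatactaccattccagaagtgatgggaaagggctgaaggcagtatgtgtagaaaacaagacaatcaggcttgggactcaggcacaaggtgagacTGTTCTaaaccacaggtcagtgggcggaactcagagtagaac
Rnase9: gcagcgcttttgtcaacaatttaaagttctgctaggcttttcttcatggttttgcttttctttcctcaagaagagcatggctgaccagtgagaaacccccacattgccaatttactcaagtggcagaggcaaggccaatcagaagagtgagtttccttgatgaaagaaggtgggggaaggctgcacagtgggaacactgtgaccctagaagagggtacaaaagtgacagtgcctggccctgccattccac
Rnase12: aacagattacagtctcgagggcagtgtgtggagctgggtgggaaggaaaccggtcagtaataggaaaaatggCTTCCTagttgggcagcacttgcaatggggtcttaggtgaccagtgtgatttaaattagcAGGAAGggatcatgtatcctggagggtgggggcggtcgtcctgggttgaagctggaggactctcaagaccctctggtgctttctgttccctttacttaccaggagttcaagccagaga
Rnase1: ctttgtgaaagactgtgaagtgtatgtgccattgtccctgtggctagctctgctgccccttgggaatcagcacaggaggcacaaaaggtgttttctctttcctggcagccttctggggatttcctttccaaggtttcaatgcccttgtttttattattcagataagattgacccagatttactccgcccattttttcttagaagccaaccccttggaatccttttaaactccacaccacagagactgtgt
Ang and Rnase4: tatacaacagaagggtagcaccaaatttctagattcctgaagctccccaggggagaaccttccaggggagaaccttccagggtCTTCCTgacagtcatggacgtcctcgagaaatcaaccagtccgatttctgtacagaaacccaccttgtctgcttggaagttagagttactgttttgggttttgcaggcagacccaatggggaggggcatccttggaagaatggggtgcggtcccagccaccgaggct
The *Rnase10* window held a TGTTCT 42 bases and a TTGCNNAA 199 bases before the start. RefSeq has another *Rnase10* start downstream, whose overlapping window (chr14:51007679-51007928) held the same TGTTCT at 220 bases, an AGAACA at 183, a CTTCCT at 133 and a TTGCNNAA at 122 bases before that start. The *Rnase12* window held an AGGAAG 118 bases before the start and a CTTCCT at 178 bases, and the shared *Ang* and *Rnase4* window held a CTTCCT at 167 bases. The window of a downstream *Rnase4* start (chr14:51095750-51095999) held a TTGCNNAA at 135 bases, an AGAACA at 116 that overlaps an AGGAAG at 111, and an AGGAAG at 43 bases before it. None of these letters occurred in the *Rnase9* and *Rnase1* windows. Of 32817 RefSeq promoters of the same length, 16.1% held the androgen receptor half-site, 29.5% the ETS letters and 9.57% the C/EBP letters, so each match is a common one and describes the sequence only.

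The family was mainly a product of principal cells, with 17915 of its 22285 UMIs there. Its summed level was 1873 UPM in principal cells, 709 in clear, 341 in basal, 191 in immune, 158 in stromal, 86.2 in endothelial and 9.18 in muscle cells. *Rnase9* gave 49.2% of all family UMIs, *Rnase12* 19.8%, *Rnase4* 14.1% and *Rnase10* 10.9%, and each of the other members gave 3.01% or less. At least 20 UMIs in some population were found for 8 of the 9 members, all but *Rnase6*, beside 68.8% of all genes of the table. For 7 of these 8, all but *Ang*, the level in such a population was at least 4 times the median population, beside 48.9% of the genes with 20 UMIs in a population. By broad type, 5 of the 9 members were highest in principal cells, beside 16% of genes with 20 UMIs in all cells. *Ang* and *Rnase1* were highest in clear, *Rnase4* in basal and *Rnase6* in immune cells. For *Ang* the intervals of clear cells (9.43 to 22.8 UPM) and basal cells (8.40 to 13.8 UPM) overlapped.

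**Figure D1:**
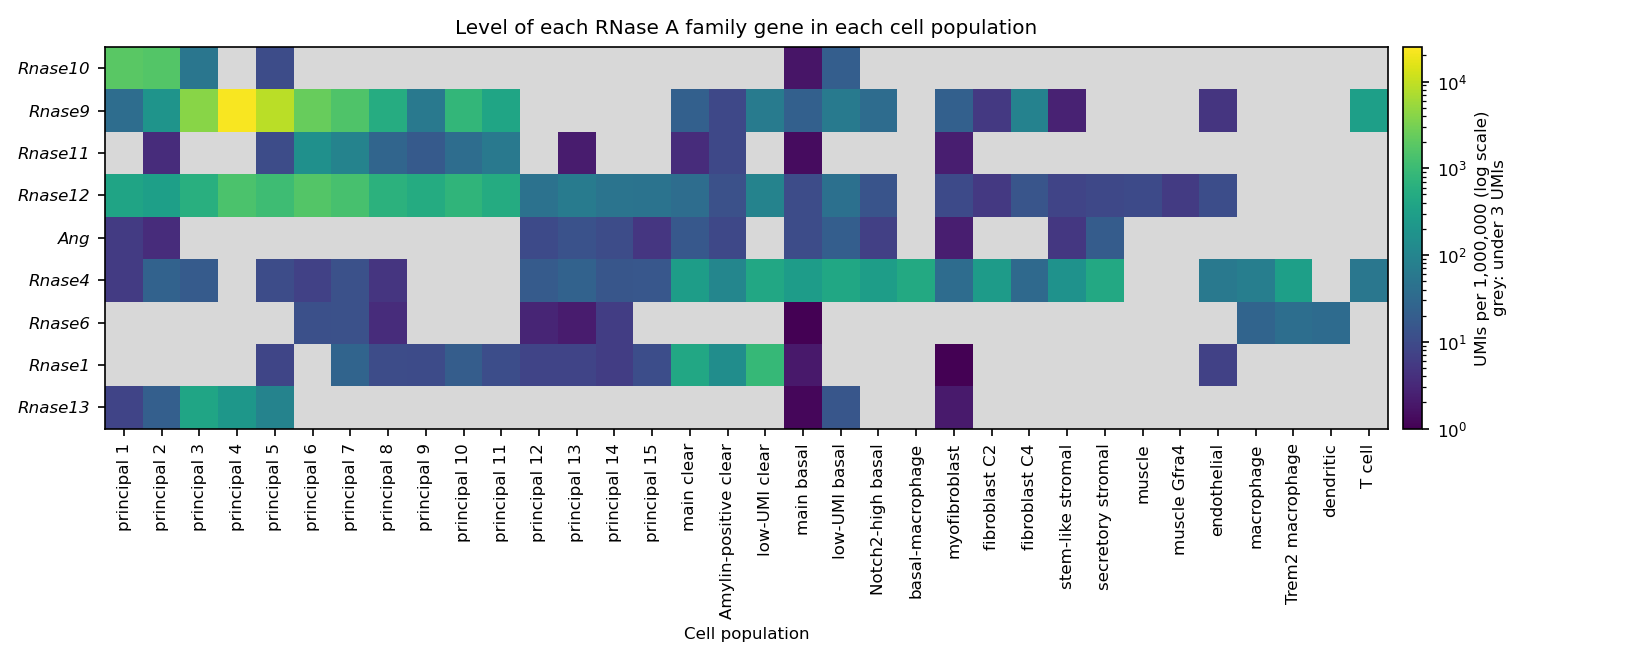
Level of the 9 family members (rows) in the 34 cell populations (columns), in UMIs per 1000000 on a logarithmic colour scale, with grey where a population had under 3 UMIs of the gene. The highest cell is *Rnase9* in principal 4 (22578 UPM), *Rnase10* is highest in principal 1 and 2 (1882 and 1693 UPM) and at 54.1 UPM or less elsewhere, and *Rnase4* runs through basal, clear and stromal populations.

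*Rnase10* was a transcript of the first caput principal cells. Its 4 library levels in principal cells were 1394 UPM for the caput (2403 UMIs), with 0 UMIs for corpus, 0 for cauda and 1 for vas deferens. The caput level was 659 times the corpus floor of 2.11 UPM (those of cauda and vas deferens were 1.72 and 0.641). That ratio is not a lower bound, since the interval for 0 UMIs in corpus principal cells reached 2.60 UPM. *Rnase10* was the only member at least 4 times every other library in principal cells. That was 1 of the 8 members that could be counted (20 UMIs in principal cells of a library), beside 6.12% of all genes that could be counted. By library these genes were 2.75% with the caput highest, 1.35% the corpus, 0.568% the cauda and 1.45% the vas deferens. *Rnase10* and *Rnase13* were the 2 of 9 members highest in the caput among principal cells of the libraries, beside 22.2% of genes with 20 UMIs in principal cells. Within the caput, principal 1 had 1882 UPM (1765 to 2005) and principal 2 had 1693 UPM (1606 to 1783), a ratio of 1.11 (1.02 to 1.21). Both together were 32.6 times (17.1 to 71.4) principal 3, where only 9 UMIs were counted (54.1 UPM). The 1778 cells of principal 6 to 11 had 0 UMIs, with a floor of 0.993 UPM. So the initial segment and proximal caput populations differed little in level, and the step lay between them and principal 3.

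Cells within these populations were less even than the levels. After thinning each cell to 1000 UMIs and leaving out shallower cells, *Rnase10* was detected in 68.3% of principal 1 cells (56 of 82, exact binomial interval 57.1 to 78.1) and in 46.4% of principal 2 cells (78 of 168, 38.7 to 54.3). Thinning left out 62 principal 1 and 185 principal 2 cells, and the unthinned shares were 57.6% and 33.1% at median depths of 1613 and 924 UMIs. In main basal cells, which serve as the background at a median of 5654 UMIs, the thinned share was 0.344%. Outside principal cells *Rnase10* had 22 UMIs in all (1.29 UPM), 7 of them in low-UMI basal cells (20.6 UPM).

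*Rnase9* was the most abundant member and was uneven along the epididymis. In principal cells its level was 1849 UPM for caput, 4568 for corpus, 542 for cauda and 3.20 for vas deferens. The corpus was 2.47 times the caput (2.37 to 2.58) and 8.43 times the cauda (7.87 to 9.03), and the cauda was 169 times the vas deferens (102 to 304). By population the level went from 37.2 UPM in principal 1 and 192 in principal 2 to 4144 in principal 3, a step of 21.6 times (18.2 to 25.8) between the latter pair. The principal 1 value came from 19 UMIs in 2 of 144 cells. After principal 3 the level rose further. It then peaked at 22578 UPM in principal 4, 2.57 times (2.45 to 2.70) the 8782 UPM of principal 5. In principal 4 the whole family made up 2.43% of all UMIs, of which *Rnase9* was 93.0%.

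Toward the cauda *Rnase9* stepped down through principal 6 (2400 UPM), principal 7 (1513) and principal 8 (539) to principal 9 (61.1), and was higher again in principal 10 (816) and principal 11 (381). Principal 10 was 13.4 times (8.79 to 21.2) and principal 8 was 8.82 times (5.85 to 13.9) principal 9. Of the 24 *Rnase9* UMIs in principal 9, 11 came from 1 cell, without which its level was 33.3 UPM. Thinned shares gave the same dip, with 29.5% of cells positive in principal 8, 5.43% in principal 9, 30.3% in principal 10 and 12.9% in principal 11. Principal 12 to 15, the vas deferens populations, had 3 UMIs together.

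Libraries could be compared within a population where both had cells of it. *Rnase9* in principal 5 had 9816 UPM in caput cells and 8175 in corpus cells, a ratio of 1.20 (1.13 to 1.28). In principal 4 the levels were 24090 UPM in the caput and 22199 in the corpus. Principal 11, at the border of the cauda and vas deferens, had 495 UPM in the cauda library and 75.3 in the vas deferens library, a ratio of 6.58 (3.24 to 15.6). Within 1 named population *Rnase9* therefore differed little between caput and corpus cells, and differed across the cauda border.

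*Rnase12* had the broadest range of the principal cell members. Its library levels in principal cells were 457 UPM for caput, 1345 for corpus, 650 for cauda and 80.9 for vas deferens. The corpus was 2.95 times the caput (2.71 to 3.20) and 2.07 times the cauda (1.92 to 2.23), and the caput was 5.64 times the vas deferens (4.98 to 6.39). Every population from principal 1 to principal 11 had between 299.7 and 1649 UPM. The top 3 were principal 6 (1649), principal 4 (1426) and principal 7 (1311). Neighbors in that order were not separated by more than counting error, with ratios of 1.16 (0.974 to 1.38) and 1.09 (0.914 to 1.29). The intervals of principal 6 (1529 to 1775) and principal 7 (1224 to 1402) did not overlap.

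In the vas deferens *Rnase12* was lower and still counted. Principal 12 to 15 together had 235 UMIs (53.1 UPM), so principal 1 to 11 were 14.5 times higher (12.7 to 16.7). Vas deferens cells of principal 11 had 395 UPM, 7.58 times (5.32 to 10.6) the vas deferens cells of principal 12 to 15, and cauda cells of principal 11 had 550 UPM, 1.39 times (0.980 to 2.01) those of the vas deferens library. *Rnase12* thus differed less across that border within principal 11 than *Rnase9* did in value, a contrast that was not tested. Thinned shares of positive cells were 70.0% in principal 4, 67.6% in principal 6, 22.8% in principal 9 and 4.4% to 5.88% in principal 12 to 15, against 1.72% in main basal cells. *Rnase12* also had 16 UMIs in vas deferens clear cells (107 UPM), beside 80.9 UPM in the principal cells of that library. These UMIs lay in 6 of 38 cells, and the same clear cells held the principal cell markers *Crisp1* and *Akr1b7* at 16.2% and 8.23% of the principal cell level, whose part in the *Rnase12* value was not tested.

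**Figure D2:**
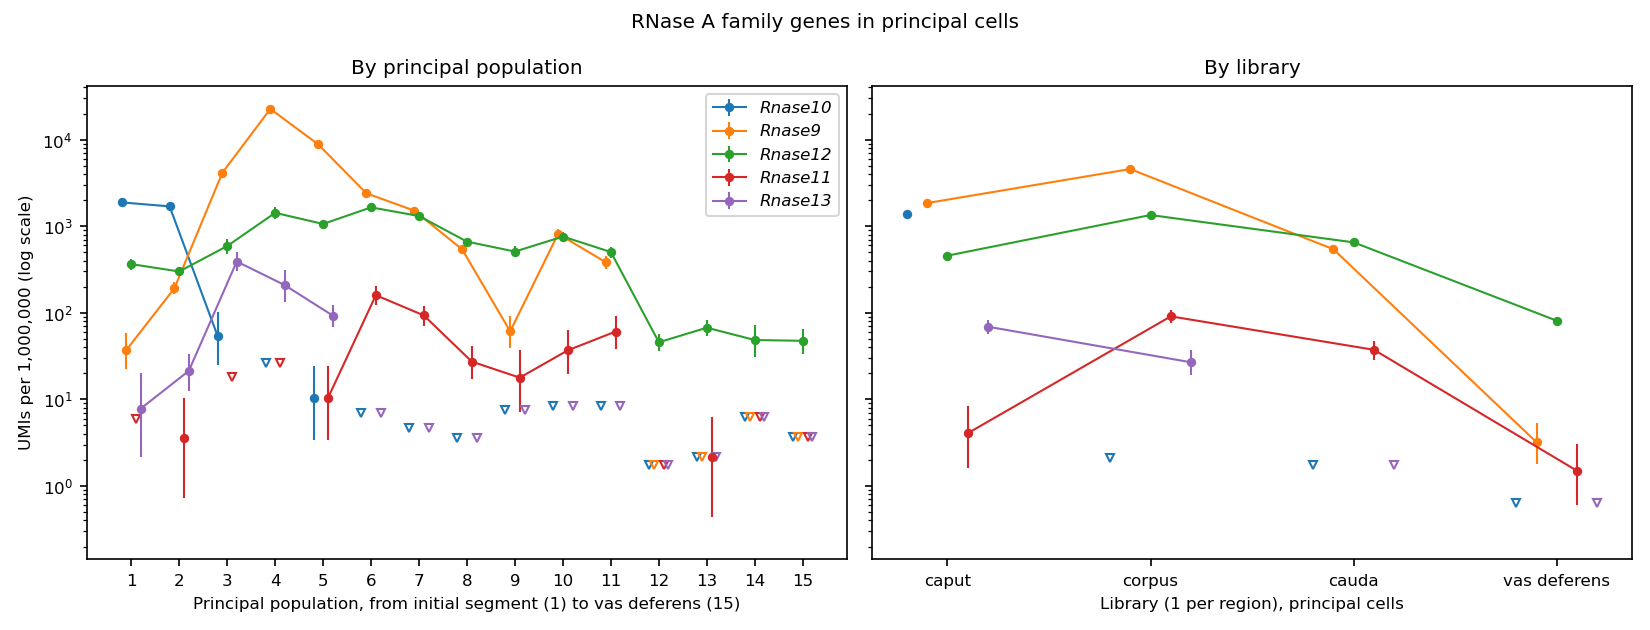
Levels of the 5 principal cell members in UMIs per 1000000 on a logarithmic axis, by principal population 1 to 15 (left) and by library for all principal cells (right). Points are levels with 95% Poisson bars, lines join neighboring points, and open triangles mark the level of 3 UMIs where fewer than 3 were counted. *Rnase10* ends after principal 3 apart from 10.3 UPM in principal 5, *Rnase9* peaks in principal 4 and dips at 61.1 UPM in principal 9, and *Rnase12* stays at or above 299.7 UPM through principal 11.

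*Rnase11* and *Rnase13*, both of the group without conserved catalytic residues, were sparse and were highest in different principal populations. *Rnase11* had 4.06 UPM in caput, 90.9 in corpus, 37.4 in cauda and 1.5 in vas deferens principal cells, the corpus being 2.43 times the cauda (1.79 to 3.33). It was highest in principal 6 (68 UMIs, 160 UPM), 1.71 times (1.19 to 2.47) principal 7 with 93.2 UPM, and principal 7 was not separated from principal 11 at 60.8 UPM (ratio 1.53, 0.927 to 2.62). Principal 1 to 5 held 12 UMIs of *Rnase11* in all. *Rnase13* had 69 UPM in the caput (119 UMIs) and 26.8 in the corpus (38 UMIs), a ratio of 2.58 (1.78 to 3.82), and 0 UMIs in cauda and vas deferens principal cells, with floors of 1.72 and 0.641 UPM. It was highest in principal 3 (391 UPM), followed by principal 4 (209, ratio 1.87, 1.16 to 3.13) and principal 5 (92.9). Principal 6 to 11 had 1 UMI of *Rnase13*. Thinned shares were at most 15.1% for *Rnase11*, in principal 6, and 22.5% for *Rnase13*, in principal 4.

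Across principal cells the leading member changed along the duct. *Rnase10* made up 81.6% of family UMIs in principal 1 and 75.6% in principal 2, and *Rnase9* made up 79.4% in principal 3, 93.0% in principal 4 and 88.0% in principal 5. In principal 6 the family was 56.7% *Rnase9* and 38.9% *Rnase12*, and in principal 9 it was 83.3% *Rnase12*. In principal 10 *Rnase9* (49.9%) and *Rnase12* (46.4%) had nearly equal parts. In principal 12 to 15 *Rnase12* (53.4% to 58.2%) was followed by *Rnase4* (16.7% to 21.6%), at a far lower summed level.

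**Figure D3:**
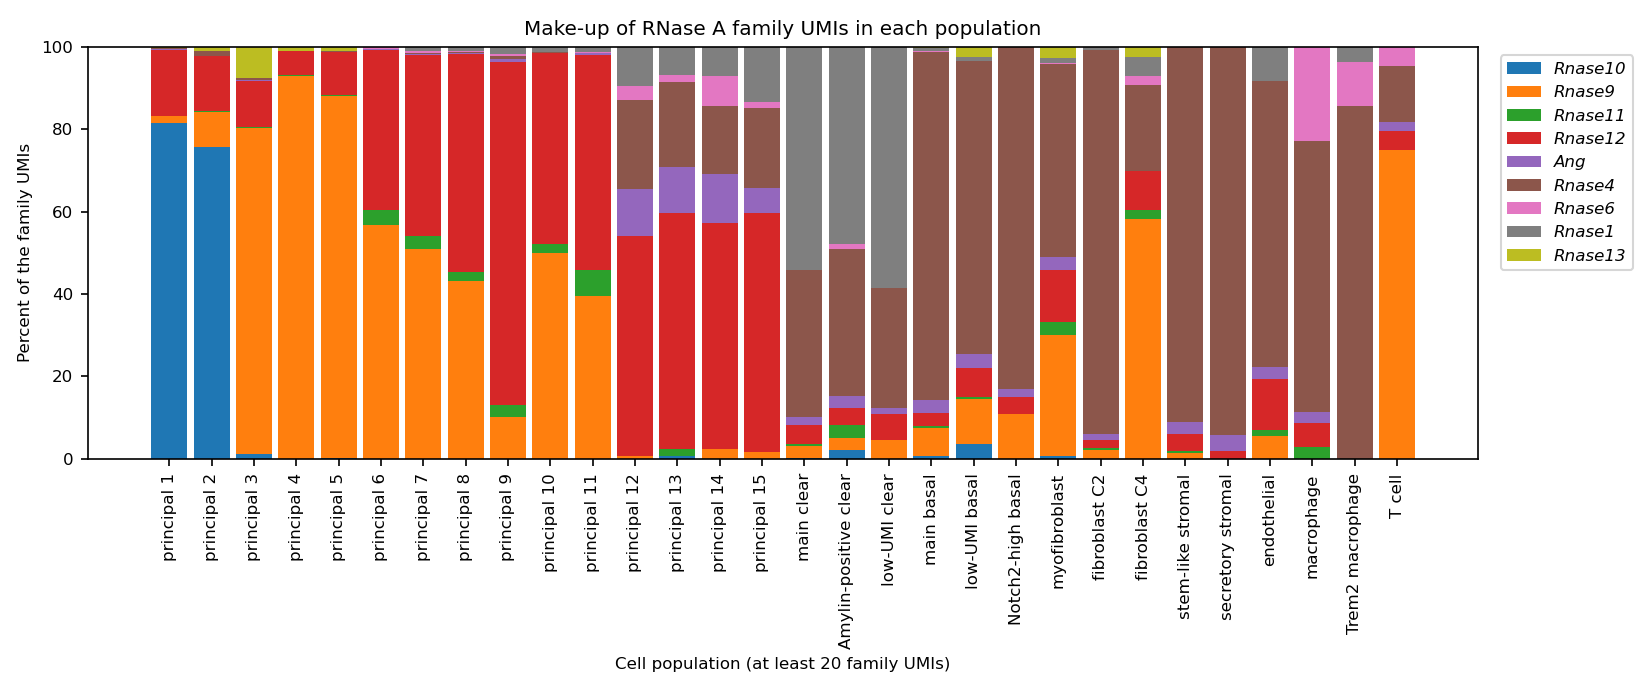
Percent of all family UMIs given by each of the 9 members, as stacked bars, in each population with at least 20 family UMIs. *Rnase10* leads in principal 1 (81.6%), *Rnase9* in principal 4 (93.0%), *Rnase12* in principal 9 (83.3%) and *Rnase9* by a little in principal 10 (49.9% against 46.4%), with *Rnase4* leading in basal cells and *Rnase1* in clear cells.

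Single principal cells carried several members in the populations where *Rnase9* was high. Among thinned cells, at least 2 of the 5 principal cell members were detected in 75.0% of principal 4, 57.1% of principal 5, 51.3% of principal 7, 49.6% of principal 6 and 37.8% of principal 3 cells. The share was 20.2% in principal 10, 19.5% in principal 1, 17.3% in principal 2, 13.2% in principal 8, 8.6% in principal 11 and 4.35% in principal 9. In principal 12 to 15 it was 0 of 722 cells, where a floor of 3 cells would be 0.416%. In principal 7, *Rnase12* was found in 81.1% of cells with *Rnase9* and in 40.0% of the rest, and the corpus cells alone had 58 with both where independence would give 48.6. The pair also exceeded independence in principal 3 (15 cells with both, 8.87 if independent), principal 10 (19 and 13.6) and principal 2 (7 and 3.08). Principal 9 (4 and 1.14) and principal 11 (7 and 5.03) did so as well. The pair was closer to independence in principal 6 (63 cells with both, 58.2 if independent) and principal 8 (23 and 22.1). In principal 5 (56 and 55.5) only 1 of 105 cells lacked *Rnase9*, so the count could hardly depart from independence. *Rnase10* and *Rnase12* in principal 1 were found together in 15 cells where independence would give 15.0. *Rnase9* and *Rnase10* were both found in 5 principal 2 cells where independence would give 6.5. Cells are not replicates, so these counts carry no test.

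*Rnase1*, the pancreatic-type enzyme active on double-stranded RNA, was the clear cell member. Clear cells had 559 UMIs (382 UPM), 43.0 times (34.2 to 54.7) principal cells at 8.89 UPM. The clear cell levels by library were 169 UPM for caput (45 UMIs), 266 for corpus (124), 623 for cauda (361) and 194 for vas deferens (29). The cauda was 2.35 times the corpus (1.91 to 2.90), 3.68 times the caput (2.70 to 5.14) and 3.22 times the vas deferens (2.20 to 4.88), so it stood above the other three. In main clear cells alone the libraries had the same order, with 195 UPM for caput, 308 for corpus, 603 for cauda and 207 for vas deferens. Main clear cells had 435 UPM, low-UMI clear cells 870 UPM (38 UMIs, and 1407 UPM among those of at least 1000 UMIs in all) and Amylin-positive clear cells, which came only from the caput and corpus libraries, 143 UPM. Within the corpus, main clear cells were 2.24 times (1.42 to 3.63) Amylin-positive cells, and within the caput the ratio was 1.30 (0.696 to 2.46), which counting error does not separate from 1. The thinned share of positive cells was 26.7% in main clear and 16% in Amylin-positive clear cells.

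*Rnase4*, an enzyme with a preference for cutting after uridine, was the member shared by most other cell types. Its 3150 UMIs lay 55.6% in basal, 25.1% in stromal and 11.6% in clear cells. Levels were 283 UPM in basal, 250 in clear, 122 in stromal, 91.1 in immune, 59.9 in endothelial and 14.3 in principal cells, and muscle cells had 2 UMIs, under the floor of 1.97 UPM. Basal cells were 19.8 times (16.6 to 23.7) principal cells.

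Basal and clear cells differed in the region where *Rnase4* was highest. Basal levels were 415 UPM for caput, 255 for corpus, 267 for cauda and 209 for vas deferens. The caput was 1.63 times the corpus (1.45 to 1.82), and the corpus and cauda were not separated (ratio 0.957, 0.826 to 1.11). Clear cell levels were 132 UPM for caput, 116 for corpus, 390 for cauda and 334 for vas deferens. The ratio of clear to basal cells was thus 0.317 (0.219 to 0.446) for caput, 0.453 (0.337 to 0.599) for corpus, 1.46 (1.22 to 1.76) for cauda and 1.60 (1.16 to 2.17) for vas deferens. The main populations alone gave the same order, main basal and main clear cells having 403 and 195 UPM in the caput library and 258 and 380 UPM in the cauda library. In main clear cells, *Rnase4* and *Rnase1* were found together in 16 thinned cells where independence would give 8.56, and in the cauda library alone in 14 where it would give 8.86.

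Among stromal cells *Rnase4* was highest in the secretory stromal cells of the vas deferens, with 308 UMIs and 456 UPM. Stem-like stromal cells had 173 UPM and myofibroblasts 35.4, so secretory stromal cells were 2.64 times (2.20 to 3.17) and 12.9 times (10.5 to 15.9) as high. Within the vas deferens library the ratio to stem-like cells was 2.92 (2.41 to 3.55). Fibroblast C2 cells, with 255 UPM, were 7.20 times (5.65 to 9.18) myofibroblasts. Stromal cells as a whole had 26.3 UPM for caput, 66.5 for corpus, 84.4 for cauda and 215 for vas deferens, but the stromal populations differed between libraries, 213 of 226 secretory stromal cells being from the vas deferens. Trem2 macrophages had 306 UPM (24 UMIs) and other macrophages 75.0 UPM (23 UMIs), a ratio of 4.07 (2.20 to 7.55).

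**Figure D4:**
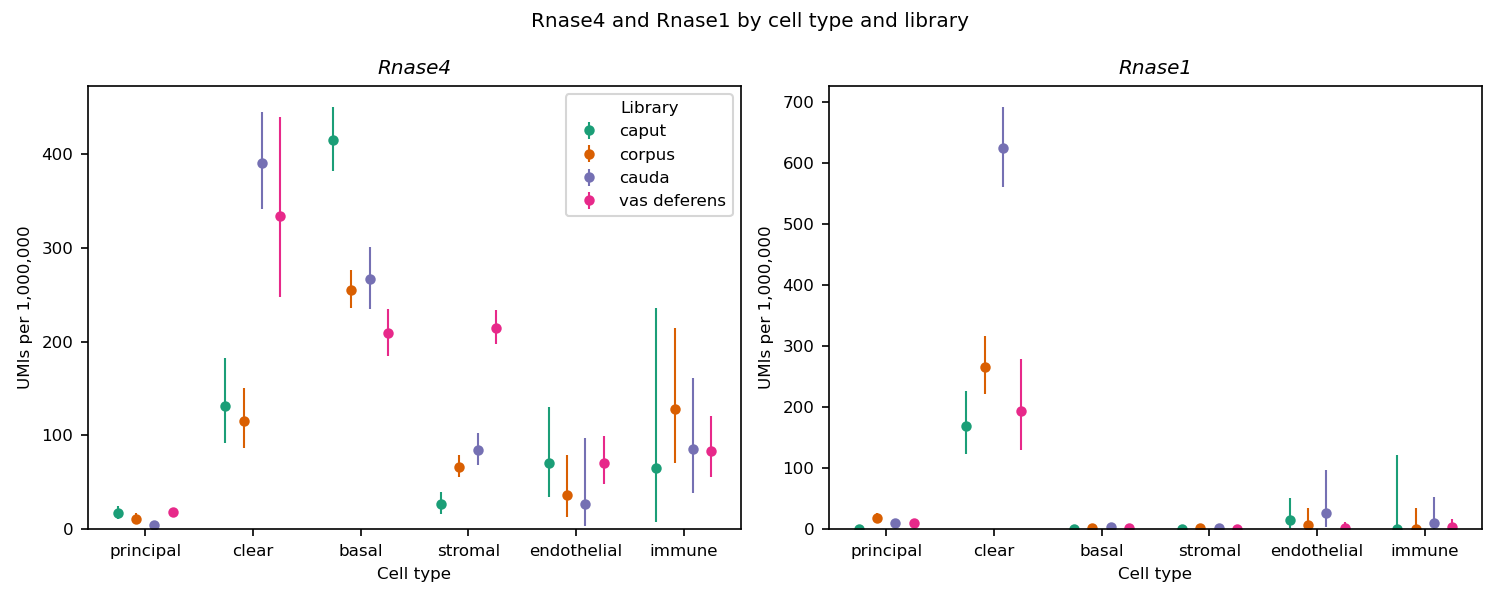
Level of *Rnase4* and *Rnase1* by cell type in each of the 4 libraries, in UMIs per 1000000, with 95% Poisson bars. Clear cells have the highest *Rnase1* in the cauda (623 UPM), and for *Rnase4* basal cells lie above clear cells in the caput (415 and 132 UPM) and below them in the cauda (267 and 390 UPM).

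*Ang* and *Rnase6* were near the limit of the data. *Ang* had 184 UMIs, at 15.1 UPM in clear (22 UMIs), 10.8 in basal (67) and 6.27 in principal cells (60). Basal cells were 1.73 times (1.20 to 2.49) and clear cells 2.40 times (1.40 to 3.97) principal cells over all libraries. In the vas deferens library, which held 45 of the 60 principal cell UMIs, basal cells had 10.4 UPM (14 UMIs) and principal cells 9.61 UPM. In principal cells it had 5.22 UPM for caput, 2 UMIs for corpus (under its floor of 2.11 UPM), 2.30 UPM for cauda (4 UMIs) and 9.61 for vas deferens, the vas deferens being 4.18 times the cauda (1.52 to 16). *Ang* and *Rnase4* were both present in basal and clear cells, where the overlap of their annotations leaves the division between them uncertain. *Rnase6*, which encodes an antimicrobial ribonuclease of leukocytes, had 58 UMIs, 34 of them in principal cells (3.55 UPM) and 16 in immune cells (27.5 UPM). The immune level was 7.73 times (3.99 to 14.4) the principal cell level. Of the 16 immune UMIs, 8 were in macrophages, 3 in Trem2 macrophages, 3 in dendritic cells and 2 in T cells.

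UMIs of the secreted principal cell members outside principal cells numbered 344 for *Rnase9*, 208 for *Rnase12* and 22 for *Rnase10*. Ranges are given for pairs of gene and library with at least 200 UMIs in principal cells. For *Rnase9*, *Rnase10* and *Rnase12* the level in basal cells was 0.762% to 7.31% of that in principal cells of the same library (median 1.12%). For the principal cell markers *Lcn8*, *Lcn5*, *Gpx5*, *Crisp1* and *Akr1b7* it was 0% to 2.89% (median 1.37%). In stromal cells it was 0.172% to 7.88% (median 0.884%) and for the markers 0% to 3.56% (median 0.80%). Below 200 UMIs, markers reached 39.0% in basal cells (*Gpx5*, cauda, 28 principal cell UMIs) and 20.6% in stromal cells (*Crisp1*, caput, 160). Among the pairs with at least 200 UMIs, the highest basal and stromal values were those of *Rnase12* in the vas deferens. Clear cells of that library, as given above, stood at 132% of principal cells. *Rnase9* in caput immune cells stood at 58.3%. All of it, 33 UMIs, was in 1 T cell, which gave the T cells of all libraries 299 UPM (0 without it). This cell also carried 74 UMIs of *Lcn5* and was not called a doublet. In myofibroblasts 36 of 85 *Rnase9* UMIs came from 1 cell called a doublet, without which the level was 12.8 in place of 22.2 UPM. In Notch2-high basal cells 20 of 26 came from another cell called a doublet, and the level without that cell was 8.42 in place of 36.0 UPM.

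Other ribonucleases gave a contrast in abundance. Of 11 further ribonuclease A superfamily genes listed, 6 were in the table, with 28 UMIs in all and none with 20 in a population. Another 3 superfamily genes of the table, not listed, had 7 UMIs in all. Multimapped reads were ignored in the counting, and how far this lowered these counts was not tested. Of 17 ribonucleases outside the superfamily, all 17 had at least 20 UMIs in a population, beside 68.8% of all genes of the table. At least 4 times the median population were 3 of the 17, beside 48.9% of the genes with 20 UMIs in a population. They included *Rnasek*, at 1475 UPM in Amylin-positive clear cells, and *Rnaseh2c*, a subunit of ribonuclease H2, at 214 UPM in principal 7. None of the 17 was at least 4 times every other library in principal cells, beside 6.12% of all genes that could be counted. *Rnh1*, which encodes the cytosolic inhibitor of these secreted enzymes, had 339 UPM in clear, 261 in immune, 258 in basal and 131 in principal cells. *Plxnb2*, a receptor for angiogenin, had 181 UPM in clear and 46.5 in principal cells.

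The genes most alike to each member were read over the 33 populations with at least 20 cells, among 9280 genes, by the Pearson correlation of log2(UPM + 10). For *Rnase10* these were *Lcn9* (r = 0.988), *9230110F15Rik* and *Gm5916*, and for *Rnase9* they were *Wfdc8* (r = 0.938), *AY761185* and *Enpp1*. *Rnase12* was most like *Cad* (r = 0.953), *Cyb561* and *Cuzd1*, *Rnase11* most like *Atp2b3* (r = 0.909), *Akr1c19* and *Foxred2*, and *Rnase13* most like *Spink2* (r = 0.956), *Defb12* and *Bsph1*. Of the members highest outside principal cells, *Rnase1* was most like *Muc20* (r = 0.946), *Slco1a5* and *Gm933*. *Rnase4* was most like *Tmem176b* (r = 0.839), *Gas6* and *Pdpn*, and *Ang* most like *Eps8l2* (r = 0.727), *Kpna2* and *Ephx1*. Populations share libraries and depth, so the correlations are descriptions, and only 6 to 8 of these 24 names stayed under another pseudocount, a rank correlation or principal populations alone.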

How the data were processed

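Members were chosen, and the gene lists fixed, with earlier results of these data known. Per the paper's methods, the authors demultiplexed reads with bcl2fastq, aligned them to mm10 with HISAT2 (2.0.4) and counted UMIs per gene with ESAT, ignoring multimapped reads. They kept barcodes of 350 to 15000 UMIs and removed ambient RNA with a modified SoupX. The deposited values are whole UMI counts per gene and cell after that removal, which took 2.80% to 4.48% of UMIs per library. Ambient removal and the ambiguity of overlapping genes can change low levels.

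The deposited annotation gave each cell 1 of 34 populations. Their descriptive names were matched to those of the study by cell numbers. No per-sample column was left unused. Counts were summed per population, type and library and divided by the total (UPM). Levels have exact Poisson intervals, ratios exact conditional binomial intervals and shares Clopper-Pearson intervals, all at 95% and for counting error only. With 1 library per region there is no p-value. A member counted at 20 UMIs, and as restricted at 4 times every other library, one under 3 UMIs being raised to 3. Shares used cells thinned to 1000 UMIs (5703 of 8880 cells). Doublets were called by simulated neighbors and kept, except where stated. Background percentages come from the same rules over all genes. All 9 members are named, as are the 3 genes most like each member with 100 UMIs, the other ribonucleases at 4 times the median population, and neighbors with 20 UMIs, except for an item that is not reported here. Scripts used python 3.11.15, numpy 2.4.6, scipy 1.17.1, pandas 2.3.3 and scikit-learn 1.9.0 and were tested on simulated data. Alternatives changed the UMI minimum, fold, cells, doublets, denominator, summing, libraries, clusters and thinning.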

Additional observations from a re-analysis of the deposited data

Results flagged for a closer look

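The order of cell types differed between regions for 2 members, and neither difference was tested, since each region has 1 library. *Rnase4* in clear cells relative to basal cells had a ratio of 0.317 for caput, 0.453 for corpus, 1.46 for cauda and 1.60 for vas deferens. *Rnase9* in basal cells relative to stromal cells had a ratio of 0.286 for caput (20.6 against 71.7 UPM) and 2.01 for corpus (51.1 against 25.4 UPM), which was 0.556% to 3.88% of the principal cell level of the same library. The 60 stromal *Rnase9* UMIs of the caput lay in 6 cells, and 36 of them in 1 myofibroblast called a doublet.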

How the results depend on the processing

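Of 45 alternatives for the counts of members and of shares, 42 left the count within 1.5 times. Of 30 for single levels and for the most alike genes, 22 left the value within its error and 8 moved it. The number of members restricted to a region in principal cells, 1 at a fold of 4, was 5 at a fold of 2 (*Rnase10*, *Rnase9*, *Rnase11*, *Rnase12* and *Rnase13*) and 2 with the mean over cells of each cell's UPM, which added *Rnase13*. Member and population pairs with at least 10% of thinned cells positive numbered 35, and 19 where 2 UMIs were asked. Without the caput library, 7 members had 20 UMIs in a population, *Rnase10* being lost. *Rnase9* in principal 4 was 21100 UPM as a mean over cells. The level of *Rnase1* in low-UMI clear cells of at least 1000 UMIs is given above. The *Rnase9* levels without their highest cell, given above, were added after the data were seen. The causes were not tested. No paired analysis was possible because each region has 1 library. Depth limits *Ang*, *Rnase6*, *Rnase11* and *Rnase13*, whose largest counts in 1 population were 54, 8, 68 and 65 UMIs.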

Other observations

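Between the outermost members on chromosome 14 the annotation places 45 genes that are not members, of which 8 were in the table and 3 had at least 20 UMIs in a population. *Eddm3b* (51114429 to 51117791), an epididymal protein gene between *Rnase4* and *Rnase6*, had 2885 UMIs. It was at 235 UPM in caput, 293 in corpus, 662 in cauda and 140 in vas deferens principal cells, and was highest in principal 10 (1144 UPM) and principal 11 (887). *Eddm3b* was thus at its highest in the cauda, whereas *Rnase10* and *Rnase13* were highest in the caput and *Rnase9*, *Rnase11* and *Rnase12* in the corpus. *Ndrg2* was highest in myofibroblasts (89.4 UPM), and *Mettl17* had 130 UMIs in all cells.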
